A study of Danio rerio with 11 samples.

Results

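The genes described here encode the proteins of the cytoplasmic ribosome and the factors that start and drive translation. They were chosen by name from the deposited table: ribosomal protein genes of the small and large subunits and of the P-stalk, and genes whose names begin with eef1, eef2, eif1, eif2s, eif4 or eif5, leaving out the kinases and methyltransferases that act on these proteins. Of 39714 gene IDs, 135 met this rule. They comprised 84 ribosomal protein genes (37 of the small subunit, 43 of the large subunit and 4 of the P-stalk) and 51 translation factor genes (14 named as elongation factors, 13 of the eIF1, eIF2 and eIF5 families and 24 of the eIF4 family). Ignoring case, 9 symbols were each shared by a pair of IDs, and these are given with the Ensembl ID.

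RNA was sequenced from pools of intraspinal serotonergic neurons (ISNs), nerve cells that make serotonin and lie within the spinal cord. All fish were of the line Tg(tph2:GFP), whose green fluorescent protein is driven from the regulatory sequence of tph2, the gene of the neuronal enzyme that begins serotonin synthesis, and the fluorescent cells were purified by fluorescence activated cell sorting 6 to 8 weeks after a spinal cord injury (SCI). The comparison is of 6 libraries from the injury segment with 5 from the distal segments, and both groups carried the same transgene and had been injured. According to the study's methods, the lesion was a complete transection, both kinds of segment were taken from the same fish and the tissue was dissociated with papain before sorting. The study's methods give both sexes and an age of 6 to 8 weeks for the fish used in its experiments. The age at sorting, which came 6 to 8 weeks after the injury, is not stated separately. How many fish or cells each library holds is not stated in the sources used here, and nothing says that the libraries of a group are separate animals, so the p-values below measure the spread between these libraries.

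A ribosome is built from a small subunit, which reads the mRNA, and a large subunit, which joins the amino acids. Each ribosomal protein is needed in about 1 copy per ribosome, except the stalk proteins, and in vertebrates nearly all ribosomal protein mRNAs, together with several elongation factor mRNAs, begin with a pyrimidine tract (the TOP motif) through which the mTOR pathway adjusts their translation. Initiation factors of the eIF4 family bring the small subunit to the capped mRNA, those of the eIF1, eIF2 and eIF5 families find the start codon and place the initiator tRNA there, and the elongation factors eEF1A and eEF2 deliver each further tRNA and move the ribosome on. In neurons the translation machinery also lies in axons and dendrites.

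Levels were deposited as FPKM, that is, the fragments mapped to a gene scaled by its length and by the size of the library, so levels of different genes are compared per length. The libraries rested on 14215980 to 19709661 fragments. They differed more in how many genes they held: 4530 to 16019 genes reached 1 FPKM at the injury and 8448 to 14208 in the distal segments, with injury replicates 3 and 2 the lowest. The sorted cells carried their defining marker in every library, with tph2 ranging from 1590 to 5396 FPKM across the injury libraries and from 1462 to 6042 FPKM across the distal libraries. The summed FPKM of 7 oligodendrocyte markers ran from 0 to 752 and from 160 to 708, of 9 IDs of ependymo-radial glia from 112 to 536 and from 53.9 to 765, and of 5 microglia and macrophage markers from 0 to 335 and from 0.0469 to 257. Erythrocyte markers reached 21.3, fibroblast and pericyte markers 3.36 and endothelial markers 0.0727.

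Ribosomal protein genes were among the most abundant transcripts of the sorted ISNs. Of the 84 genes, 76 had a mean of at least 100 FPKM, a level reached by 836 of all 39714 IDs. They were also detected regularly: 71 of 84 (84.5%) were above 0 in every library, against 9.46% of the 24178 genes whose mean reached 0.1 FPKM. The median of the mean levels was 457 FPKM over the 83 ribosomal protein genes among these and 2.30 FPKM over all of them. The part of level in this detection was not tested. Translation factor genes were lower and less regular, with 11 of 51 at a mean of at least 100 FPKM and 21 of 51 (41.2%) above 0 in every library. The median of the genes' mean levels was 457 FPKM in the small subunit, 387 FPKM in the large subunit, 914 FPKM in the P-stalk, 56.5 FPKM in the elongation factors, 58.7 FPKM in the eIF1, eIF2 and eIF5 families and 17.1 FPKM in the eIF4 family. Means under 10 FPKM were found for 4 ribosomal protein IDs, among them RPL26 at 1.53 and RPL9 at 0.349 FPKM. Whether an ID without a symbol also holds transcripts of these genes could not be settled here, so the values are those of the named IDs alone.

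The level of the ribosomal protein genes as a group moved strongly from library to library. Their share of the summed FPKM was 7.87, 9.66, 2.99, 4.25, 5.24 and 7.91% across injury replicates 1 to 6, followed by 7.14, 2.88, 6.17, 6.73 and 3.86% in distal replicates 1 to 5. The groups overlapped, with 3 injury libraries (7.87, 7.91 and 9.66%) above every distal library and the other 3 within the distal range. Averaged by group, it was 6.32% ± 2.56 (SD, n = 6) near the lesion against 5.36% ± 1.88 (SD, n = 5) away from it, and the gap of 0.964 percentage points was smaller than the SD of either group. Translation factor genes took 0.668% ± 0.124 (SD, n = 6) and 0.656% ± 0.144 (SD, n = 5) of the summed FPKM, a difference that was again within the spread of both groups. Across libraries the share of the translation factor genes varied 1.82-fold and that of the ribosomal protein genes 3.35-fold.

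The median over the 71 genes above 0 in every library, here called the ribosomal protein level, was 655, 806, 216, 377, 415 and 681 FPKM across injury replicates 1 to 6, against 585, 260, 531, 574 and 287 FPKM in distal replicates 1 to 5. The 3 highest libraries were from the injury segment, as was the lowest, and the distal libraries lay between them. The order of the libraries was not that of the number of genes detected: injury replicate 2, with 5443 genes at 1 FPKM or more, had the highest level, injury replicate 3, with 4530 genes, the lowest, and injury replicate 5, with the most genes (16019), an intermediate level of 415 FPKM. The deepest libraries, injury replicate 2 with 19709661 fragments, distal replicate 1 with 19506444, injury replicate 1 with 18660295 and distal replicate 3 with 18401526, had levels of 806, 585, 655 and 531 FPKM, and the shallowest, injury replicate 5 with 14215980 and distal replicate 4 with 14740454, had 415 and 574 FPKM. The summed FPKM of a library varied 1.30-fold and, like the level, was highest in injury replicate 2 and lowest in injury replicate 3. Among the distal libraries both were lowest in replicates 2 and 5. The orders were not the same throughout: injury replicate 4, with a level of 377 FPKM, had a higher summed FPKM than injury replicate 6, with 681 FPKM. The parts of depth and of the summed FPKM in these levels were not tested. The part of the summed FPKM on mitochondrially encoded genes, 4.65% to 23.2%, was highest in injury replicate 4.

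**Figure D1:**
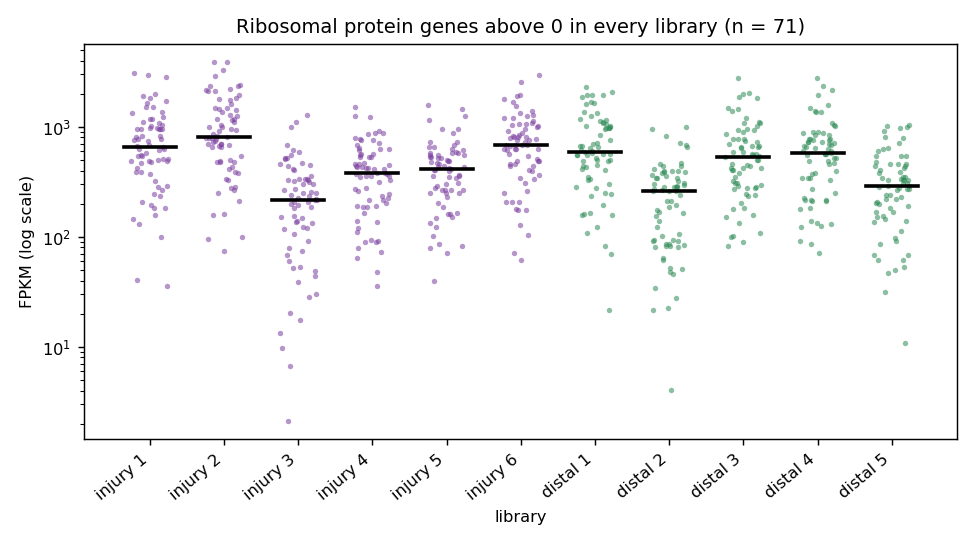
FPKM (log axis) of the 71 ribosomal protein genes that were above 0 in every library, one point per gene, in each of the 6 injury and 5 distal libraries; black bars are the library medians. The whole cloud of genes shifts up and down between libraries, from a median of 216 FPKM in injury replicate 3 to 806 FPKM in injury replicate 2, and the groups overlap.

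Within this shift the ribosomal protein genes moved together. On the scale of log2(FPKM + 1), the median gene had an SD of 0.854 across the 11 libraries, and this fell to 0.406 once each library's ribosomal protein median had been subtracted. Differences between libraries shared by all 71 genes made up 67.0% of their variance. The median correlation between pairs of genes was 0.765 over the 11 libraries, and 88.4% of 2485 pairs had an r above 0.5. The coherence was present inside each group: the median r was 0.867 over the 6 injury libraries and 0.829 over the 5 distal libraries. The genes of a library are read from the same RNA and cDNA, so they are not separate observations. It did not hang on 1 library, with a median r of 0.745 to 0.792 when each was left out, and stood at 0.744 when injury replicates 2 and 3 and distal replicate 2 were left out together, the libraries with the most members at 0.

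The same measures were lower in the other gene groups examined. A set of 22 genes was taken by the name prefix nduf. Most of them encode subunits of respiratory complex I, likewise a large assembly. Over these genes 42.9% of the variance lay between libraries and the median r was 0.492. Over 15 proteasome core genes these values were 20.4% and 0.239. Over the 21 translation factor genes detected throughout they were 14.9% and 0.167, and over all 2287 genes above 0 in every library 3.93% and 0.0402. Subtracting the ribosomal protein level did not narrow the spread of the translation factor genes, which was 0.970 before and 1.24 after. The groups also differed in level. Over the members with a mean of at least 0.1 FPKM, the median mean level was 457 FPKM for ribosomal protein genes and 29.8 FPKM for translation factor genes. Among the 71 ribosomal protein genes, a higher mean FPKM went with a smaller SD after the subtraction (rank correlation -0.586). The part of level in these contrasts was not tested.

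**Figure D2:**
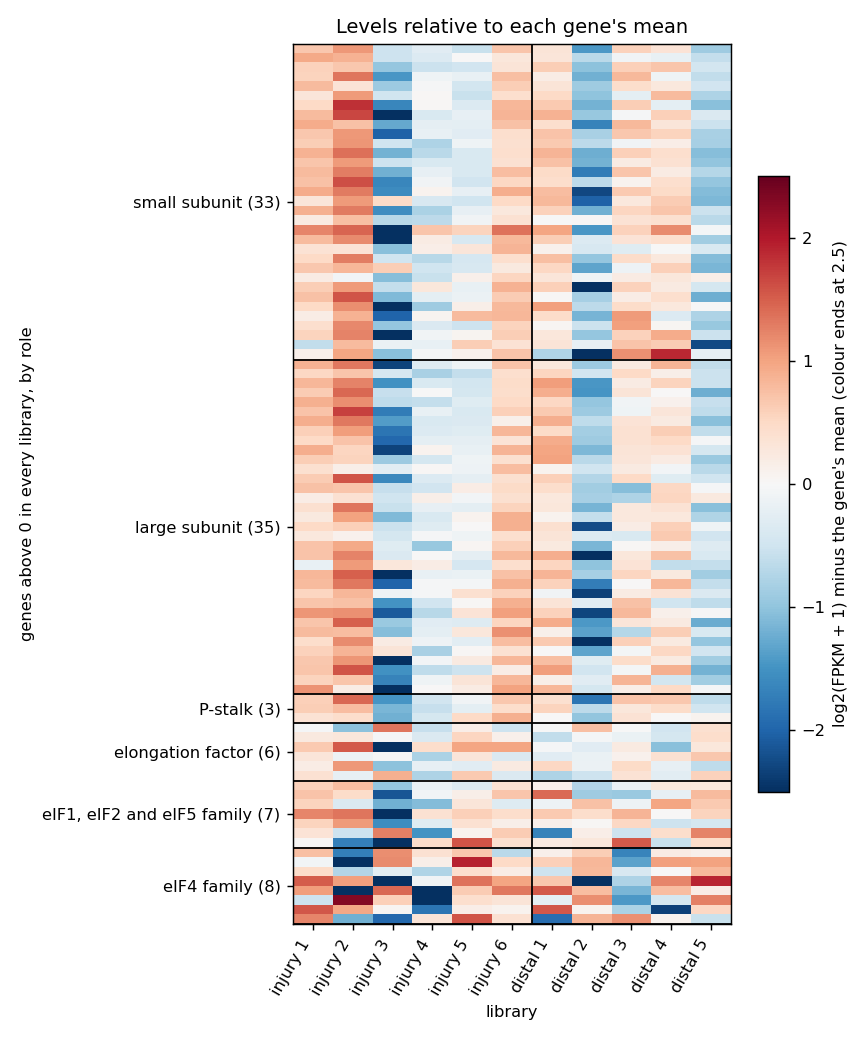
log2(FPKM + 1) minus each gene's own mean for the 92 members above 0 in every library (rows, by role, in order of mean level) in the 11 libraries (columns, the vertical line separating injury from distal); red is higher, blue lower, and the colours end at 2.5. The 71 ribosomal protein rows share one column pattern, high in injury replicate 2 and low in injury replicate 3 and distal replicate 2, which the 21 translation factor rows mostly lack.

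Both subunits took part to a similar extent. The summed FPKM of the small subunit was divided by that of the large subunit over genes above 0 in every library (33 and 35 genes). This ratio was 1.00 ± 0.0341 (SD, n = 6) for the injury libraries against 0.980 ± 0.0913 (SD, n = 5) for the distal ones. It lay between 0.894 in distal replicate 5 and 1.13 in distal replicate 3. The ratio thus varied 1.26-fold while the share of all 84 ribosomal protein genes varied 3.35-fold. Genes at 0 in any library were left out of the ratio but not of the share. The rank order of the 84 genes was also kept, with a median Spearman's rho of 0.911 over the 55 pairs of libraries (lowest 0.687, highest 0.973). Injury replicate 3 ranked its genes least like the others (median rho 0.726), followed by distal replicate 2 (0.855).

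Each ribosomal protein gene was compared with the median of the other ribosomal protein genes over the 11 libraries. All 71 had an r above 0.5 and 52 of them (73.2%) an r above 0.8, with a median of 0.886. The lowest was RPL24 of the large subunit, with an r of 0.515, and the highest RPL35, with 0.972. Among the 2195 other genes above 0 in every library, the median r with the ribosomal protein level was -0.0910 and 2.92% exceeded 0.8. Gene length moved with this measure. For the 412 other genes under 1000 bases the median r was 0.372 and 11.7% exceeded 0.8, whereas for the 1783 other genes of at least 1000 bases the values were -0.173 and 0.897%. Ribosomal protein genes are short, and 54 of the 71 were under 1000 bases by the gene lengths behind the FPKM values. Those 54 had a median r of 0.906 and the 17 longer ones 0.816, above the other genes of either length class. The parts of transcript length and of level in the shared shift and in this comparison were not tested.

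**Figure D3:**
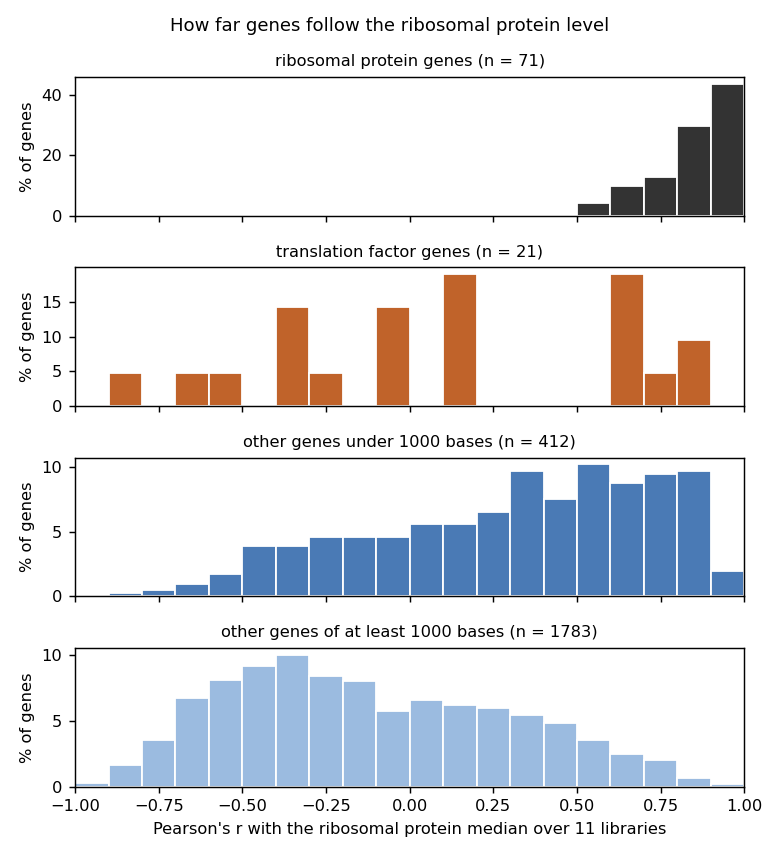
Distribution of Pearson's r with the ribosomal protein median over the 11 libraries, as the percentage of genes per bin of 0.1, for the 71 ribosomal protein genes (each against the median of the others), 21 translation factor genes, 412 other genes under 1000 bases and 1783 other genes of at least 1000 bases, all above 0 in every library. The ribosomal protein genes lie above 0.5 throughout, the short other genes lean to positive values (median 0.372) and the longer ones to negative values (median -0.173).

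Genes outside the naming rule whose products belong to or sit on the ribosome were also compared with this level. FAU encodes a ribosomal protein fused to a ubiquitin-like protein. It had an r of 0.901 with the ribosomal protein level, and 0.877 when injury replicates 2 and 3 and distal replicate 2 were left out. RACK1, a scaffold protein that sits on the small subunit, stood at 948 FPKM in injury replicate 3 and 147 to 531 FPKM in the others, with an r of -0.298 (0.160 without those 3 libraries). TPT1, whose mRNA is a classical TOP mRNA, had an r of 0.354 and ran only from 329 to 797 FPKM.

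In the small subunit, rps20 and RPS2 had the highest levels, with means of 2086 and 1695 FPKM. rps20 lay between 1254 and 3890.2 FPKM with a median of 2233 at the injury, and was at 2299, 678, 2764, 2339.8 and 991 FPKM in distal replicates 1 to 5. RPS2, which lines the mRNA entry channel, lay between 1099 and 3060.4 FPKM with a median of 1756 at the injury, and was at 1950.2, 994, 1477, 1395 and 1041 FPKM in the distal libraries. Both groups overlapped for both genes, and distal replicate 2 was the lowest distal library in each. The steadiest small subunit gene relative to the rest was RPS15, with an SD of 0.245 on the log2 scale after centring. It ran from 463 to 1518 FPKM (median 983) at the injury and was at 1089, 471, 1191, 1043 and 624.8 FPKM in the distal libraries. Its lowest injury and distal libraries, injury replicate 3 and distal replicate 2, were those with the lowest ribosomal protein level.

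The least steady ribosomal protein gene detected throughout was RPS23, a protein of the decoding centre, with an SD of 1.86 after centring. It was at 655, 779, 2.103, 457, 415 and 721 FPKM across injury replicates 1 to 6 and at 559, 102, 419, 638 and 272 FPKM in distal replicates 1 to 5. Injury replicate 3 was the only library under 100 FPKM.

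In the large subunit, rpl32 and RPL19 were highest, with means of 1875 and 1424 FPKM. rpl32 lay between 314 and 3877 FPKM (median 1997) at the injury and was at 1885, 833, 1814, 2787 and 1019 FPKM in the distal libraries. RPL19 varied less, between 757 and 2152 FPKM (median 1388) at the injury and at 1944, 959, 1887, 1477 and 915 FPKM in the distal libraries. The groups overlapped for both. RPL11, which in mammals also binds the p53 regulator MDM2 when ribosome assembly is disturbed, was the second steadiest member with an SD of 0.199 after centring. It was at 219.9 to 946 FPKM (median 530.5) at the injury and at 500.2, 309.8, 567.5, 563 and 280.3 FPKM in the distal libraries.

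The P-stalk, the flexible arm of the large subunit that recruits the elongation factors, held the steadiest member of all. RPLP1 had an SD of 0.158 after centring, and its levels were 511 to 1937 FPKM (median 1251) at the injury and 1678, 719, 1388, 1563 and 800.1 FPKM in the distal libraries. rplp2, its partner in the stalk, ranged more widely, from 438 to 3289 FPKM (median 1489.8) at the injury and at 1611, 344, 1990.3, 1937 and 787 FPKM in the distal libraries. Both followed the ribosomal protein level closely, with an r of 0.966 for RPLP1 and 0.959 for rplp2. The paralog rplp2l was at 190.0 to 973 FPKM in the libraries where it was detected and at 0 in injury replicate 3.

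Ribosomal protein genes listed at 0 were concentrated in that library. Their number was 2, 4, 12, 3, 1 and 2 across injury replicates 1 to 6, against 2, 5, 2, 3 and 1 in distal replicates 1 to 5. Of the genes at 0 in injury replicate 3, the 8 that were above 0 in every other library were RPL5 (ENSDARG00000020197), RPL7L1, RPL8, RPL13A, RPL22L1, RPL36AL, rps27l and rplp2l. RPL13A was at 207 to 676 FPKM in the other 10 libraries and RPL8 at 67.2 to 815 FPKM, while the limit set by 0 fragments in injury replicate 3 was 0.233 and 0.215 FPKM. Translation factor genes at 0 numbered 4, 18, 24, 11, 3 and 2 in the injury libraries and 7, 12, 7, 9 and 5 in the distal libraries, the highest being injury replicates 3 and 2, distal replicate 2 and injury replicate 4. Of all genes tested, 78.4% were at 0 in injury replicate 3 and 71.9% in replicate 2 of that group, while injury replicate 5 had 18.5%.

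Several ribosomal proteins are encoded by a pair or more of paralogs, and their proportions differed in how far they varied between libraries. Of the summed FPKM of the RPS27 family, rps27.1 gave 89.4% ± 2.73 (SD, n = 6) for the injury libraries against 89.8% ± 4.14 (SD, n = 5) for the distal ones. It was the third highest small subunit gene, at 685 to 2128 FPKM (median 1320.4) at the injury and at 2067, 655, 2019, 2178 and 979.9 FPKM in the distal libraries. Its relatives were far lower: rps27.2 was at 35.8 to 95.6 FPKM (median 60.1) at the injury and at 69.2, 47.9, 90.7, 86.2 and 10.7 FPKM in the distal libraries. rps27l, a gene known in mammals as a target of p53, was at 0 to 228 FPKM (median 100.2) and at 128, 90.3, 103, 138 and 61.0 FPKM. Closely related paralogs can share reads, and how the authors' counting split such reads is not stated in the sources used here.

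RPL22 and its paralog RPL22L1, which in mammals is held down by RPL22, were expressed at similar levels in most libraries. RPL22L1 gave 40.7% ± 27.1 (SD, n = 6) of their sum at the injury, compared with 41.0% ± 10.2 (SD, n = 5) distally. RPL22L1 was at 123, 572, 0, 70.8, 73.5 and 93.3 FPKM across injury replicates 1 to 6 and at 92.4, 32.1, 120.4, 119 and 39.9 FPKM in distal replicates 1 to 5. The 572 FPKM of injury replicate 2 was far above all other libraries, and RPL22L1 there gave 85.1% of the pair. RPL22 was at 6.72 to 194 FPKM (median 101) at the injury and at 157, 64.6, 99.2, 125 and 86.5 FPKM in the distal libraries, and its lowest value was in injury replicate 3, where RPL22L1 was at 0.

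RPL5 joins RPL11 in binding the small rRNA of the large subunit before its assembly, and both of its IDs were expressed. ENSDARG00000015862 gave the larger part, 66.8% ± 20.8 (SD, n = 6) for the injury libraries against 61.0% ± 8.13 (SD, n = 5) for the distal ones. It was at 89.1 to 282 FPKM (median 201) at the injury and at 159, 62.0, 152, 225 and 113 FPKM in the distal libraries. ENSDARG00000020197 was at 0 to 179 FPKM (median 117) and at 139, 30.0, 89.4, 211 and 49.7 FPKM. RPL7 outweighed RPL7L1, a relative known for work in ribosome assembly, in all libraries: it was at 302 to 814 FPKM (median 528) at the injury and at 577, 92.5, 499, 662 and 404 FPKM in the distal libraries. RPL7L1 was at 0 to 123 FPKM (median 48.6) and at 83.4, 30.8, 105, 40.04 and 39.6 FPKM.

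Most translation factor genes did not follow the ribosomal protein level. Of the 21 detected in every library, 7 had an r above 0.5 with it, 11 lay between -0.5 and 0.5, and 3 were under -0.5. Among the 2195 other genes, 14.8% were above 0.5 and 17.2% under -0.5. These shares also moved with gene length. For the 1783 other genes of at least 1000 bases they were 8.97% and 20.4%. Of the 21 factor genes, all but eif5a (977 bases) belonged to this length class, whereas most ribosomal protein genes were shorter. The parts of length and of level in the contrast between factor and ribosomal protein genes were not tested. Of the factors above 0.5, EEF1B2 and EIF1 came closest to a ribosomal protein gene. EEF1B2, a subunit of the exchange factor that recharges eEF1A with GTP, had an r of 0.842 and held it (0.775) when injury replicates 2 and 3 and distal replicate 2 were left out. EIF1, the factor that keeps scanning ribosomes from starting at wrong codons, had an r of 0.833, and 0.439 without those 3 libraries.

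EIF1 was by far the most abundant translation factor gene, with a mean of 1457 FPKM, under the 1472 FPKM of rplp2 and above the 1424 FPKM of RPL19. It lay between 705 and 2343 FPKM (median 1496) at the injury and was at 1499, 826, 1210.4, 1681 and 1650.5 FPKM in the distal libraries. Next in its family came eif5a, the hypusine-bearing factor that helps ribosomes past difficult peptide bonds, at 89.7 to 653 FPKM (median 492.95) at the injury and at 1067, 213, 209, 347 and 689 FPKM in the distal libraries. Its r of 0.618 became 0.0871 without the 3 libraries, and similar losses were seen for EEF1G (0.639 and -0.0637), eif1axb (0.620 and 0.194) and EIF4EBP2 (0.670 and -0.143). EIF2S2, the beta subunit of eIF2, had an r of 0.733 and kept 0.475.

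Elongation factor eEF1A was supplied mainly by a pair of genes with unlike behaviour. EEF1A1 (ENSDARG00000039502) was at 432, 218, 1125, 298, 495 and 309 FPKM across injury replicates 1 to 6 and at 438, 742, 438, 317 and 585 FPKM in distal replicates 1 to 5. Its level was highest in the libraries where ribosomal protein genes were lowest, injury replicate 3 and distal replicate 2, and lowest in injury replicate 2, where they were highest. Its r with the ribosomal protein level was -0.843, between -0.930 and -0.759 when each library was left out, and -0.461 without injury replicates 2 and 3 and distal replicate 2. The transcript of tph2 had an r of the same sign, -0.698, and -0.392 without those libraries. eef1a1l1 was nearly flat, at 277 to 513 FPKM (median 406) at the injury and at 233, 343, 318, 262 and 480.2 FPKM in the distal libraries, with an r of -0.0653. eEF1A mRNA belongs to the TOP mRNAs of vertebrates, a motif through which translation is adjusted, and transcript levels do not measure that. Neither of these genes had a positive r with the ribosomal protein level here.

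EEF1A1 (ENSDARG00000039502) gave 49.5% ± 14.4 (SD, n = 6) of the summed eEF1A FPKM at the injury, compared with 57.8% ± 5.54 (SD, n = 5) distally, and eef1a1l1 gave 47.6% ± 13.9 and 38.2% ± 6.42. The other EEF1A1 ID (ENSDARG00000069951) was at 0 to 42.6 FPKM (median 30.6) at the injury and at 54.1, 37.6, 24.9, 11.8 and 46.0 FPKM in the distal libraries. In mammals mature neurons switch from the first eEF1A gene to a second, eEF1A2. The zebrafish eef1a2 was at or near 0 in these sorted neurons, with 1.04 FPKM in injury replicate 5 and 0.0291 FPKM in replicate 6 of the same group, the other libraries being at 0, and eef1a1l3 was at 0 in every library.

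Translocation factor eEF2 came mainly from EEF2 and eef2b, and EEF2 varied little. EEF2 lay between 68.7 and 147 FPKM (median 112) at the injury and was at 98.3, 106, 129, 156 and 189.5 FPKM in the distal libraries, an SD of 0.406 on the log2 scale before any centring. eef2b lay between 43.7 and 139 FPKM (median 81.1) at the injury and was at 43.3, 52.2, 96.6, 62.4 and 112 FPKM in the distal libraries. EEF2 gave 56.4% ± 5.76 (SD, n = 6) of the summed eEF2 FPKM at the injury, compared with 64.9% ± 5.44 (SD, n = 5) distally, and their ranges overlapped, from 45.5% to 61.1% and from 56.9% to 69.9%. The tandem copies contributed little: eef2a.1 was at 0 to 12.9 FPKM (median 3.02) and at 1.31, 0, 0, 4.65 and 5.09 FPKM, and eef2a.2 was above 0 only in injury replicates 1 and 6 (0.904 and 0.0188 FPKM) and distal replicate 3 (0.934 FPKM).

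**Figure D4:**
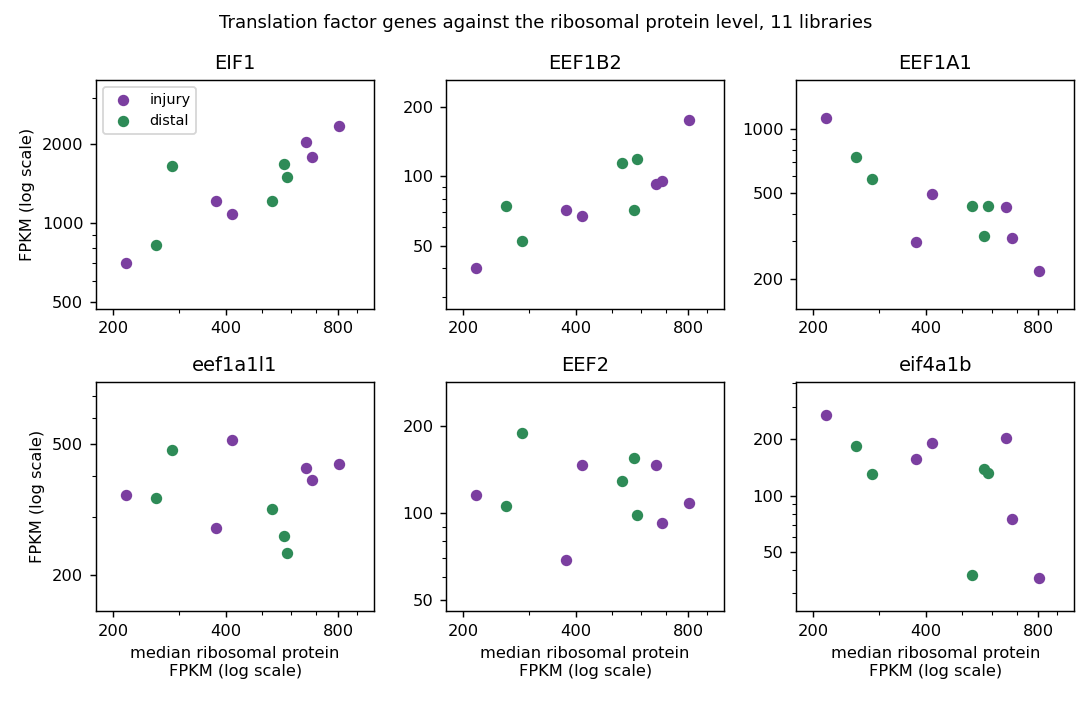
FPKM of 6 translation factor genes against the median FPKM of the 71 ribosomal protein genes (both axes logarithmic, one point per library, 6 injury and 5 distal); EEF1A1 is ENSDARG00000039502. EIF1 and EEF1B2 climb with the ribosomal protein level, EEF1A1 and eif4a1b descend (r of -0.843 and -0.616), and eef1a1l1 and EEF2 are flat (r of -0.0653 and -0.0775). Without injury replicates 2 and 3 and distal replicate 2 the r was 0.439 for EIF1 and 0.775 for EEF1B2. It was then -0.461 for EEF1A1 and -0.213 for eif4a1b.

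The eIF4 family was the most irregular. Its helicase eIF4A, which unwinds the mRNA leader, came mainly from eif4a1b and eif4a1a. eif4a1b lay between 36.1 and 269.8 FPKM (median 175) at the injury and was at 132, 185, 37.5, 139 and 131 FPKM in the distal libraries. eif4a1a was at 59.6, 0.143, 143, 69.1, 238 and 89.1 FPKM across injury replicates 1 to 6 and at 94.4, 111, 24.1, 129 and 127 FPKM in distal replicates 1 to 5, the widest spread of any member detected throughout (SD 2.49 after centring). The r with the ribosomal protein level was negative for both, -0.616 for eif4a1b and -0.545 for eif4a1a. Without injury replicates 2 and 3 and distal replicate 2 these values were -0.213 and -0.310. Both genes were low in injury replicate 2 and distal replicate 3. EIF4A3, a core protein of the exon junction complex rather than of initiation, was at 0 to 30.7 FPKM (median 21.8) and at 16.3, 6.21, 37.5, 38.1 and 23.1 FPKM. EIF4E3, an unusual cap-binding protein, had an SD of 2.02 after centring, at 0.0546 to 32.4 FPKM (median 21.4) at the injury and 35.2, 20.1, 4.59, 20.3 and 13.2 FPKM in the distal libraries.

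The eIF4E-binding proteins, which block assembly of the cap complex until mTOR phosphorylates them, were represented chiefly by eif4ebp1 and EIF4EBP2. eif4ebp1 was at 0 to 193 FPKM (median 98.6) at the injury and at 70.0, 37.9, 50.6, 96.9 and 109.9 FPKM in the distal libraries. EIF4EBP2 was at 0.0215 to 54.0 FPKM (median 37.5) and at 29.6, 0.545, 10.2, 43.5 and 71.1 FPKM. eif4ebp1 gave 58.8% ± 29.2 (SD, n = 6) of their family at the injury, compared with 69.3% ± 18.0 (SD, n = 5) distally, with 0% in injury replicate 3. The other forms were sparse, with eif4ebp3 (ENSDARG00000054916) at 0 to 23.1 FPKM (median 1.23) and at 32.9, 0, 11.5, 0.0720 and 6.602 FPKM. EIF4EBP3 (ENSDARG00000041607) was at 0 to 8.19 FPKM (median 0.707) at the injury and above 0 in the distal segments only in replicate 5, at 7.72 FPKM.

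The comparison of the injury segment with the distal segments asked whether the translation machinery of ISNs differed in transcript level around the lesion. By limma on log2(FPKM + 1) over all 24178 genes, none of the 131 members tested had an adjusted p under 0.05 (Benjamini-Hochberg), and neither did any other gene (0%). The lowest adjusted p of a member was 0.838. At an unadjusted p under 0.05 there was 1 member of 131, EIF1B, against 649 genes of all tested (2.68%, of which 0.658% higher and 2.03% lower at the injury). No member had groups that did not overlap, against 0.252% of all genes. The remaining 4 members, EIF4E1B, eef1a1l3 and eef1a2 among them, had means under the 0.1 FPKM that the test required.

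EIF1B, a close paralog of EIF1, was at 45.9, 0, 0, 0, 28.6 and 31.5 FPKM across injury replicates 1 to 6 and at 81.0, 21.7, 40.4, 45.0 and 50.6 FPKM in distal replicates 1 to 5. It was detected in all distal libraries and in 3 injury libraries, and the injury libraries at 0 were the 3 with the fewest genes among them. Its difference was -2.91 ± 1.09 (log2 scale, injury minus distal, SE), with an adjusted p = 0.838 by limma. Leaving out 1 library at a time moved it between -3.51 and -2.40, and it was -1.87 without injury replicates 2 and 3 and distal replicate 2. The unadjusted p rose above 0.05 without injury replicate 4, distal replicate 1 or distal replicate 5, when no member stayed under it.

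Among the other members with small p-values, several differences rested on 1 or a few libraries. RPL10A, a large subunit protein, was at 248 to 474 FPKM (median 369.6) at the injury and at 252, 51.7, 307, 345 and 207 FPKM in the distal libraries, a difference of 0.81 ± 0.53 (SE, adjusted p = 0.838, limma) that was 0.34 without distal replicate 2. The difference of RPS2 was 0.45 ± 0.32 (SE, adjusted p = 0.838, limma). EIF4A2, a further form of the eIF4A helicase, was at 0 to 48.4 FPKM (median 8.63) at the injury and at 66.4, 25.6, 5.49, 35.2 and 16.9 FPKM in the distal libraries, with a difference of -1.71 ± 1.05 (SE, adjusted p = 0.838, limma) that was -1.14 without injury replicate 3 and -0.28 without injury replicates 2 and 3 and distal replicate 2. EEF1A1 (ENSDARG00000069951) differed by -1.59 ± 1.06 (SE, adjusted p = 0.838, limma), and its 2 libraries at 0 were injury replicates 2 and 3. Without these and distal replicate 2 its difference was 0.18.

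Read by role, the median differences of the ribosomal protein genes were small beside their errors. The median over the 83 ribosomal protein genes tested was 0.22 on the log2 scale, and 55 of them (66.3%) were higher at the injury, against a median of -0.04 and 48.2% over all genes tested. These genes share their library level, so their 83 signs are not separate observations. The library median of the 71 genes above 0 throughout differed by 0.18 between the groups, from 0.08 ± 0.71 (SD, n = 6) to -0.10 ± 0.57 (SD, n = 5), within the spread of each. The median difference was 0.27 in the small subunit (25 of 36 higher), 0.13 in the large subunit (28 of 43 higher) and 0.07 in the P-stalk. The median SE of a ribosomal protein gene was 0.511, so differences smaller than this were not resolved gene by gene.

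For the 48 translation factor genes tested the median difference was -0.12, with 19 (39.6%) higher at the injury and a median SE of 0.953. The elongation factors had a median of 0.11 (6 of 12 higher) and the eIF4 family -0.11 (10 of 23 higher). The eIF1, eIF2 and eIF5 families had a median of -0.69, and 3 of 13 were higher at the injury, with EIF1B the only one under an unadjusted p of 0.05 by limma. Among the 13 were 4 genes at 0 in injury replicate 3 and above 0 in all distal libraries (EIF1B, EIF2S1 ENSDARG00000052178, EIF5A2 and EIF1AD), the library with the most members at 0. Across all members the median difference was 0.09, and it lay between -0.08 and 0.43 when each library was left out.

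**Figure D5:**
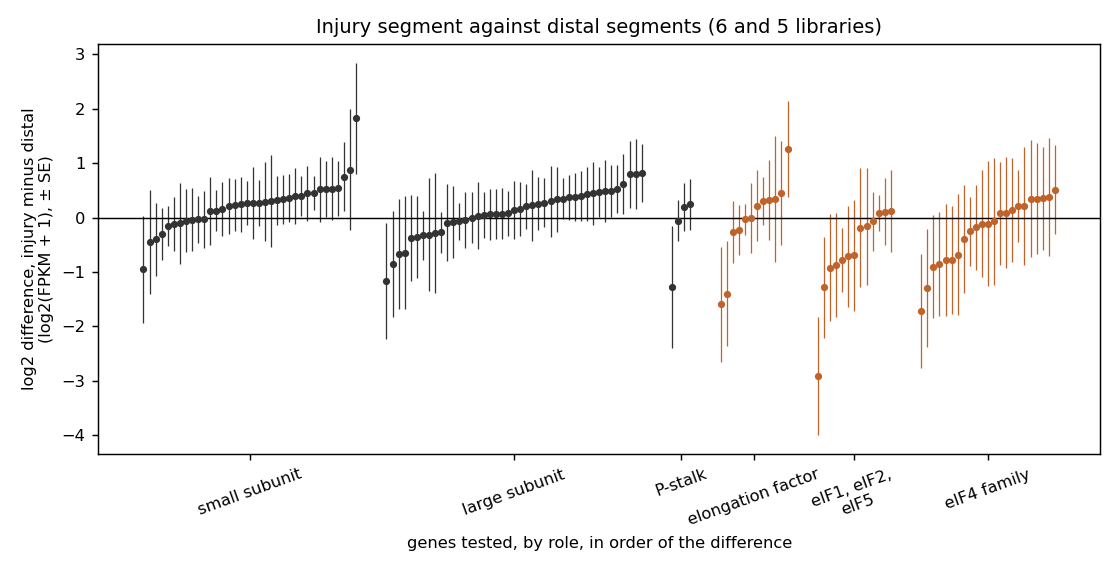
Difference between the injury segment (6 libraries) and the distal segments (5 libraries) for the 131 members tested, on the log2(FPKM + 1) scale with the SE from limma, in order of size within each role; dark points are ribosomal protein genes, orange points translation factor genes. EIF1B is the lowest point (-2.91), and the lowest adjusted p of a member was 0.838.

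Genes that act beside the members in translation were read off the same fit. None of them had an adjusted p under 0.05 by limma. At an unadjusted p under 0.05 there were 5 lower of 75 mitochondrial ribosomal protein genes (median difference -0.55; 2.03% of all genes were lower by this measure), 1 lower of 23 ribosome biogenesis genes (-0.18), 1 higher of 9 S6 kinase genes (-0.70) and 1 higher of 3 eEF1A lysine methyltransferase genes (-0.86). The 5 mitochondrial ribosomal protein genes, MRPL3, MRPL16, MRPL32, MRPL48 and MRPS14, were all at 0 in injury replicate 3 and at 0 or, for MRPS14, 0.0697 FPKM in injury replicate 2, the libraries with the fewest genes detected, and the part of this in their differences was not tested. No gene passed it among the 17 of eIF3, the scaffold of initiation (median difference -0.63, 4 higher), the 5 of eIF2B, the exchange factor of eIF2 (-0.57), the 9 of eIF6, release and poly(A) binding (0.14), the 7 of ribosome-associated chaperones and TOP mRNAs (-0.06) or the 8 kinases and regulators of translation (-0.37). The median over all genes tested was -0.04. EIF3D, EIF3I and eif3ea were among the eIF3 genes at 0 in injury replicate 3, where 78.4% of all genes tested were at 0. The part of such zeros in the medians of these lists was not tested. In the comparison sets no gene had an unadjusted p under 0.05 by limma either. Their median difference was -0.08 over 22 proteasome core genes and -0.33 over 48 nduf genes, which include assembly factors of respiratory complex I. Of the genes in these lists that were above 0 in every library, the 6 of eIF3 had a median r of -0.262 with the ribosomal protein level. The median r was 0.361 over 5 mitochondrial ribosomal protein genes, 0.360 over 4 ribosome biogenesis genes and 0.782 over 5 of ribosome-associated chaperones and TOP mRNAs. It was 0.324 over 15 proteasome core genes and 0.543 over 22 nduf genes. For 2 genes of eIF6, release and poly(A) binding it was -0.510, and for 1 eIF2B gene -0.440.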

How the data were processed

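ISNs from Tg(tph2:GFP) zebrafish were sequenced by the authors after SMART-Seq v4 amplification, giving paired-end reads. The submitters' processing notes name HISAT2 2.0.5, HTSeq 0.9.1 and the build danRer11. The deposited values are FPKM, which the authors calculated from gene length and mapped fragments, and no scaling from library to library is described; their DESeq test needs counts and was not refitted. Symbols came from a reference table joined on the Ensembl ID (29201 of 39714 IDs), many in mammalian form. Library totals, gene lengths and fragments per gene were recovered from the FPKM values as whole numbers (all 11 totals within 0.0135 of a whole number); copies made by amplification are not independent molecules, so limits from 0 fragments cover counting error only. Per the labels, 6 injury and 5 distal libraries were compared.

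Genes averaging 0.1 FPKM or more entered a two-sided limma fit (limma 3.58.1, R 4.3.3; lmFit, then eBayes with trend) of log2(FPKM + 1), and p-values were adjusted by the Benjamini-Hochberg method over every gene tested. A pseudocount of 1 understates changes of low genes. The fit and the recovery were tested on simulated data. For the fit, each gene was drawn independently from its own mean and SD, and known shifts were put only into higher, steadier genes. That simulation held no level shifts shared by the genes of a library, so it does not show how the fit behaves with them. Spread was the SD across libraries before and after subtracting each library's median over the ribosomal protein genes above 0 in every library; correlations are Pearson's r of log2(FPKM + 1), descriptions without a test. Values by library are given for the 2 highest members of each role, the 3 smallest p-values in each direction, the 3 largest and 3 smallest centred spreads, and the eEF1A, eEF2, eIF4A, eIF4E-binding protein, RPL22, RPL7, RPS27 and RPL5 families; any other gene was singled out after its values were seen, and a few genes that these rules name are not reported here. The summed levels of 9 serotonergic markers were 6793 to 10776 FPKM at the injury and 4603 to 12249 in the distal segments, and those of 7 pan-neuronal markers 1614 to 3671 and 1896 to 3301. Other steps ran in Python 3.11.15 (scipy 1.17.1, pandas 2.3.3, numpy 2.4.6), with plots by matplotlib 3.10.9. The members and lists were chosen with earlier results of these data known. Alternatives were pseudocounts of 0.1 and 0.01, other filters, rescaling by sum or median ratio, quantile normalization, no trend, a replicate block and leaving out libraries; voom on the recovered fragments, genes detected as a covariate, the share of fragments and leaving out 3 libraries together were added after seeing the data.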

Additional observations from a re-analysis of the deposited data

Results flagged for a closer look

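Of 96 groups of libraries examined (FPKM of 41 named genes and library measures), 8 held a library standing apart from the rest of its group by Dixon's criterion. For independent, normally distributed values chance gives about 1 in 20 groups, or 5%. The FPKM here were skewed, often 0 and read from the same libraries, and groups with all values equal were counted. That rate is therefore no measure for these 8 groups. In injury replicate 3, EEF1A1 (ENSDARG00000039502) was at 1125 FPKM, the next injury library being at 495, and 12 ribosomal protein genes were at 0, the next library having 4. In injury replicate 2, RPL22L1 was at 572 FPKM (next 123) and eef2a.1 at 12.9 FPKM (next 4.64). Some low-level genes had 1 library apart from the rest of its group. EIF4EBP3 (ENSDARG00000041607) was at 7.72 FPKM in distal replicate 5, and eef1a2 at 1.04 FPKM in injury replicate 5. For eef2a.2 these libraries were injury replicate 1 at 0.904 FPKM and distal replicate 3 at 0.934 FPKM.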

How the results depend on the processing

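Of 235 values recomputed under an alternative, 224 stayed on their side of the threshold or moved by less than the spread, 10 moved further and 1 reversed. No member had an adjusted p under 0.05 under any alternative run, including voom on the recovered fragments (limma). The number of members at an unadjusted p under 0.05, which was 1 (EIF1B), was 2 with quantile normalization (3.14% of all genes), 2 with a covariate for genes detected (4.67%), 3 when injury replicates 2 and 3 and distal replicate 2 were left out together (4.23%; EEF1G, EIF4G2 ENSDARG00000020377 and EIF4G3 ENSDARG00000077215), and 0 to 3 when each library was left out: 0 without injury replicate 4, distal replicate 1 or distal replicate 5, 2 without injury replicate 1 and 3 without injury replicate 3 (2.25% to 3.11% of all genes). With the replicate number as a block it was 2 (EIF1B and EIF4A2, 2.52% of all genes) over replicates 1 to 5 of both groups. Nothing in the sources says that equal numbers mark the same fish, so the numbers were not taken to pair the samples. Deviations of same-numbered libraries from their group means had correlations of 0.0523, 0.00531, -0.0465, -0.00212 and 0.134. These cannot decide the pairing, because 18.5% to 78.4% of the genes tested were at 0 in a library. The median difference of members lay between -0.0759 and 0.426 when each library was left out, its sign turning without injury replicate 1 (-0.0253), injury replicate 2 (-0.0191) or distal replicate 2 (-0.0759), and the difference in ribosomal protein share between 0.295 and 1.63 percentage points, the centred spread between 0.358 and 0.428. The share difference was 0.343 points with the 3 libraries left out, 0.5002 as a share of fragments and 2.45 when the 100 highest genes outside the members were taken out of the sum. Without centring, the median spread of the ribosomal protein genes was 0.854. The difference of EEF1A1 (ENSDARG00000069951) reversed to 0.18 without the 3 libraries. Across the alternatives the unadjusted p of EIF1B by limma ran from 0.00157 to 0.125 and its adjusted p from 0.714 to 0.935. Members at 0 in sparse libraries limit how finely their differences could be measured, and the causes of these changes were not tested.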
